A study of Mus musculus with 6 samples.

Results

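Glycolysis splits glucose into pyruvate in a chain of cytosolic reactions, and lactate dehydrogenase then turns pyruvate into lactate. In the fetal testis, Sertoli cells are known as glycolytic cells that pass lactate on to germ cells. The 10 enzymes described here are Hk1, Hk2, Pfkl, Aldoa, Gapdh, Tpi1, Pgk1, Eno1, Pkm2 and Ldha, chosen by their symbols in the deposited gene table. The table lists 16862 genes, and 15116 of them, the 10 enzymes included, reached 10 in 3 libraries or more and were tested. Expression was measured by RNA sequencing in whole male gonads dissected from C57BL/6 mouse embryos on embryonic day E13.5. The groups were 3 libraries labelled L/H-Pgds-/-, with both prostaglandin D synthases knocked out (called KO libraries 5, 7 and 8), and 3 from wild-type embryos (WT libraries 1, 3 and 4). The labels speak of different littermates and do not say which shared a litter or how the deletions were made, so p-values measure the spread between these libraries.

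Values are upper-quartile normalised pseudo-counts made by the authors, which are adjusted and fractional and are not reads. They summed to between 21657342 and 21846849 in KO libraries and between 22881124 and 23734462 in WT libraries, and the sequencing depth is unknown. Ptgds, the gene of L-Pgds, averaged 7.39 ± 6.81 in KO and 7803 ± 1114 in WT (SD, n = 3 each). Hpgds, the gene of H-Pgds, rose instead: its values were 87.8, 87.3 and 104 in KO libraries and 45, 47.5 and 55 in WT libraries (log2 0.90, limma adjusted p = 0.00853). The labels do not give the deleted part of Hpgds, so its whole-gene value does not check that deletion. Every marker listed for Sertoli, germ and fetal Leydig cells had a value above 0 in every library. WT library 1 stood apart: the 8 skeletal muscle markers summed to 27110 in it, against 1833 to 2407 in KO libraries and 2901 to 3844 in the other WT libraries. In whole gonads, fewer cells of a type and less RNA per cell cannot be told apart.

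The rows of Gapdh, Eno1 and Pgk1 were lower than those of the other 7 enzymes in every library, and their transcripts are the ones shared most with other genes. Gapdh (glyceraldehyde-3-phosphate dehydrogenase), widely used as a reference gene for its abundance, was listed at only 148 ± 31.3 in KO and 157 ± 20.7 in WT (SD, n = 3 each). Of the positions in its longest annotated transcript (GENCODE vM21), 84.0% began a 32-base stretch that occurs exactly in a transcript of another gene. That share was 77.0% for Eno1 (enolase) and 68.3% for Pgk1 (phosphoglycerate kinase). It was 49.8% for Pkm2, 33.2% for Ldha, 32.9% for Aldoa, 17.4% for Tpi1 and at most 0.703% for Pfkl, Hk1 and Hk2. Among 15841 genes with an annotated transcript, 3.02% shared at least 50% of theirs.

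The first 90 coding bases of Gapdh and the same stretch of Gm7336, a processed pseudogene on chromosome 7, are shown because they do not differ at any base. Coding bases 589 to 678 of Tpi1 and of its copy Tpi-rs11 follow as a contrast, with the 5 differing bases in capitals. Sequences are 5′ to 3′, from the GENCODE vM21 transcripts.
Gapdh: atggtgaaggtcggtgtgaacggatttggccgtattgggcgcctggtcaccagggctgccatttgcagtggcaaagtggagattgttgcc
Gm7336: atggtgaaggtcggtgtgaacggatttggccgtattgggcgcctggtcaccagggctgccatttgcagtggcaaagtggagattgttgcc
Tpi1: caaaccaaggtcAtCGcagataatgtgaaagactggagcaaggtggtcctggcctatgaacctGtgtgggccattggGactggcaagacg
Tpi-rs11: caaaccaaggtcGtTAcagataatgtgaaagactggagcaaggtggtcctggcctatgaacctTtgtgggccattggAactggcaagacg

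The identity of Gapdh and Gm7336 ran over all 1002 coding bases, and that of Pgk1 and its copy Pgk1-rs7 on chromosome 12 over 1253 of 1254. The closest copy of Eno1 matched 99.4% of its 1305 coding bases. For Aldoa, Tpi1, Ldha and Pkm2 the longest stretch shared without a break with the closest copy was 86, 111, 113 and 195 bases. Of the 320 other genes that share 32 bases with Gapdh, 317 are annotated pseudogenes, and such pseudogenes numbered 27 for Ldha, 14 for Pkm2, 11 for Eno1, 8 for Aldoa, 7 for Tpi1 and 6 for Pgk1. The deposited table holds rows for 8 of the genes that share with Gapdh. Gm12070, which shares 67.6% of Gapdh, was listed at 0.528 to 4.77 in KO libraries and 0.714 to 4.61 in WT libraries. The row 3000002C10Rik, which shares 20.7%, was near Gapdh itself at 132 to 142 in KO libraries and 142 to 183 in WT libraries. The row of Eno1 spans only 127 bases, from 149611306 to 149611432 on chromosome 4 (mm9), while its longest transcript has 2027. How the authors treated reads with several matches is not given in the sources used here, and the part of shared sequence in these low values was not tested. The rows of Gapdh, Eno1 and Pgk1 are uncertain as levels of these enzymes.

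**Figure D1:**
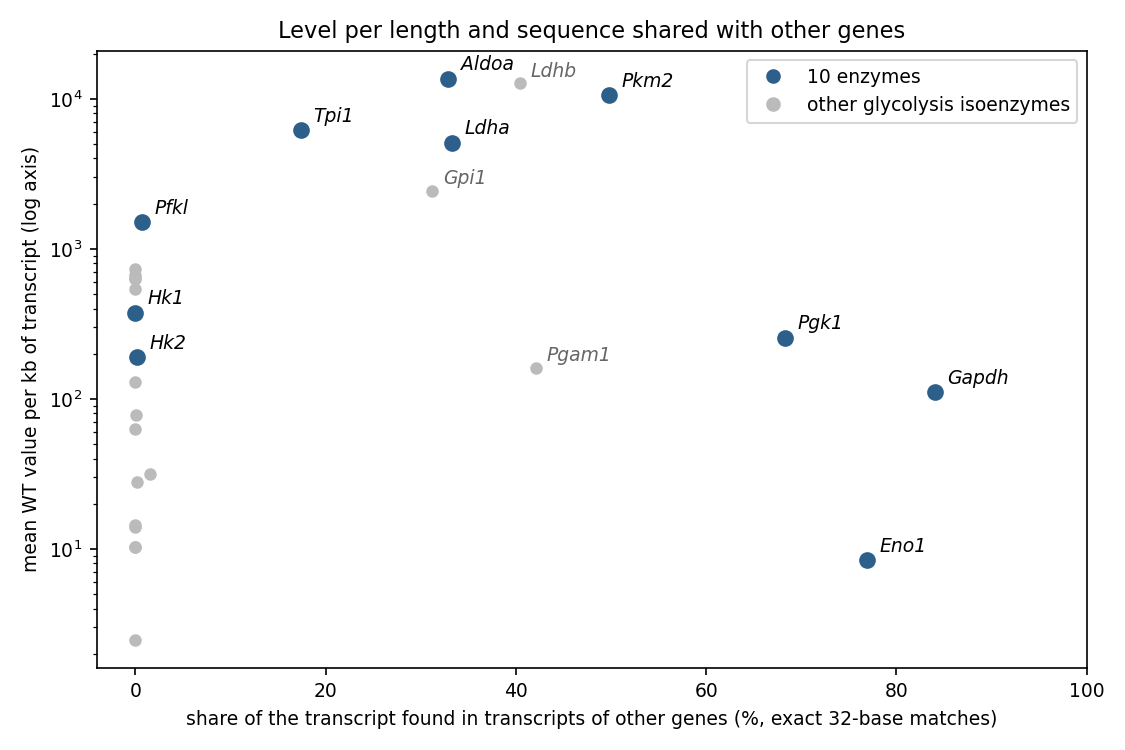
Mean WT value per kb of transcript (log axis) against the share of the transcript's positions found exactly, over 32 bases, in transcripts of other genes; blue points are the 10 enzymes and grey points other glycolysis isoenzymes. Pgk1, Gapdh and Eno1 lie at the right, at shares of 68.3% or more, with values per kb of 256.4 or less, while Aldoa and Pkm2 stand at 13584 and 10542.

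Per kb of the longest protein-coding transcript, Aldoa stood highest of the 10 rows, at 10418 ± 1297 in KO and 13584 ± 799 in WT (SD, n = 3 each). Pkm2 followed at 7777 ± 453 in KO and 10542 ± 542 in WT. Per 1000 unshared positions the 2 were close, and Aldoa stayed higher in KO (15837, Pkm2 15682) but not in WT (20650, Pkm2 21258). Tpi1 stood at 4148 ± 248 in KO and 6151 ± 363 in WT, and Ldha at 3736 ± 408 in KO and 5110 ± 164 in WT. In KO libraries Tpi1 and Ldha were within their spread of each other. The enzymes of the first steps were lower, with Pfkl at 1189 ± 239 in KO and 1511 ± 60.7 in WT. Hk1 stood at 382 ± 32.1 in KO and 376 ± 63.0 in WT, and Hk2 at 232 ± 31.9 in KO and 189 ± 17.2 in WT. Hk1 thus exceeded Hk2 in every library, with a ratio of their deposited values of 1.28 ± 0.0785 in KO and 1.54 ± 0.131 in WT (not per length). Summed over the 10, the deposited values came to 52233 to 62279 in KO libraries and 72762 to 77778 in WT libraries, without overlap. Aldoa, Pkm2, Tpi1 and Ldha make up most of that sum, so it says little of the others.

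Of the 10 enzymes, 5 fell in KO gonads, 0 rose and 5 did not pass the test (limma, adjusted p under 0.05). Among all genes tested, 17.0% were lower and 17.3% higher by the same rule, 34.3% in all. The 5 that fell were Tpi1, Ldha, Pkm2, Aldoa and Pfkl, with KO means of 0.674 to 0.787 times the WT means. The median log2 change was -0.31 over the 10 enzymes and -0.03 over all genes. Of 10 Sertoli cell markers 1 rose (Wt1) and 2 fell (Clu and the knocked-out Ptgds). Without WT library 1, 0 rose and 4 fell, against 15.5% of all genes higher and 14.3% lower. Without Ptgds their sums overlapped only at WT library 1. They were 94151 to 126382 in KO libraries, 125361 in WT library 1 and 140674 to 152515 in the other WT libraries. Of 10 germ cell markers 2 rose and 0 fell. Their sums were 22588 to 37700 in KO libraries, 33405 in WT library 1 and 20978 to 25637 in the other WT libraries. Of 8 fetal Leydig markers 3 fell, and 0 without WT library 1 (14.3% of all genes lower). Their sums were 62571 to 85188 in KO libraries, 123531 in WT library 1 and 81383 to 87120 in the other WT libraries. Of 7 smooth muscle markers 1 rose and 4 fell, with sums of 11220 to 12021 in KO libraries, 28704 in WT library 1 and 13826 to 16580 in the other WT libraries. The part of these cells in the enzymes' values was not tested.

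Hexokinases phosphorylate glucose and so hold it in the cell. Hk1, the broadly expressed form (chromosome 10, 61731603 to 61842656 in mm9), had values of 1591, 1521 and 1786 in KO libraries 5, 7 and 8, against 1317, 1847 and 1667 in WT libraries 1, 3 and 4. The genotypes overlapped, and the log2 change was 0.03 (SE 0.13, 95% interval -0.25 to 0.31, limma adjusted p = 0.868). Without WT library 1, the lowest of all, it was -0.11 (adjusted p = 0.511).

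Hk2, the inducible form typical of muscle and growing cells (chromosome 6, 82675021 to 82724448), had values of 1167, 1188 and 1481 in KO libraries and 935, 1106 and 1090 in WT libraries. The KO libraries all lay above the WT libraries, by little for KO libraries 5 and 7. The log2 change of 0.29 did not pass (SE 0.12, 95% interval 0.03 to 0.55, adjusted p = 0.082). Scaled to equal totals, Hk2 passed (log2 0.39, adjusted p = 0.0264).

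Pfkl encodes the liver form of phosphofructokinase, which commits sugar to glycolysis (chromosome 10, 77449694 to 77472541). Its values were 3959, 3885 and 5463 in KO libraries and 5375, 5738 and 5791 in WT libraries. KO library 8 reached into the WT range, and the other KO libraries lay well below it. Pfkl fell with a log2 change of -0.36 (SE 0.13, adjusted p = 0.0481), just inside the threshold. The call ended without KO library 5, KO library 7, WT library 3 or WT library 4 (adjusted p from 0.098 to 0.174), and in 11 of 18 alternatives in all.

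Aldoa, the aldolase that splits the phosphorylated sugar (chromosome 7, 133938748 to 133943961), had values of 15953, 14228 and 18234 in KO libraries and 20069, 20622 and 22436 in WT libraries. All KO libraries lay below all WT libraries. Aldoa fell with a log2 change of -0.39 (SE 0.11, adjusted p = 0.0229). The call ended without KO library 5, KO library 7 or WT library 4 (adjusted p = 0.0781, 0.0542 and 0.0909), and under equal totals (0.0632), quantile normalisation (0.57) and a prior with no mean trend (0.0549).

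Tpi1, triose phosphate isomerase, which lets both products of the split run through the pathway (chromosome 6, 124760633 to 124764314), fell most. Its values were 6387, 6490 and 7123 in KO libraries and 10480, 9313 and 9860 in WT libraries. The highest KO library stood clearly below the lowest WT library. The log2 change was -0.57 (SE 0.09, adjusted p = 0.00209), and the call was kept with each library left out in turn.

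Gapdh (chromosome 6, 125111870 to 125115601) had values of 157, 114 and 174 in KO libraries and 163, 175 and 134 in WT libraries. They overlapped widely, and the log2 change was -0.10 (SE 0.20, 95% interval -0.54 to 0.34, adjusted p = 0.726).

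Pgk1, whose reaction yields the first ATP of the pathway (chromosome X, 103382463 to 103399038), had values of 391.8, 387.4 and 389.6 in KO libraries and 457, 489 and 457 in WT libraries. The groups did not overlap and the KO libraries were close together. Its log2 change of -0.26 did not pass (SE 0.11, 95% interval -0.50 to -0.03, adjusted p = 0.0815), though it did after quantile normalisation (-0.32, adjusted p = 0.0443) and with library weights (-0.25, adjusted p = 0.0339). Eno1 had values of 9.22, 17.0 and 17.5 in KO libraries and 13.4, 18.7 and 18.9 in WT libraries. The genotypes overlapped, and its log2 change was -0.24 (SE 0.38, 95% interval -1.09 to 0.60, adjusted p = 0.644).

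Pkm2 is the older symbol of Pkm, which encodes both muscle-type pyruvate kinases through a choice of exons (chromosome 9, 59504175 to 59527182). The row covers the whole gene and does not separate them. Its values were 18918, 17808 and 20012 in KO libraries and 24904, 24850 and 27158 in WT libraries, again without overlap. Pkm2 fell with a log2 change of -0.44 (SE 0.10, adjusted p = 0.00764).

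Ldha, the lactate dehydrogenase subunit that favours lactate formation (chromosome 7, 54101174 to 54110997), had values of 6151, 6595 and 7598 in KO libraries and 9049, 9612 and 9165 in WT libraries. All KO libraries lay below all WT libraries. Ldha fell with a log2 change of -0.46 (SE 0.10, adjusted p = 0.00618). The calls of Pkm2 and Ldha were kept with each library left out in turn, but that of Pkm2 ended under quantile normalisation (log2 -0.22, adjusted p = 0.12).

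**Figure D2:**
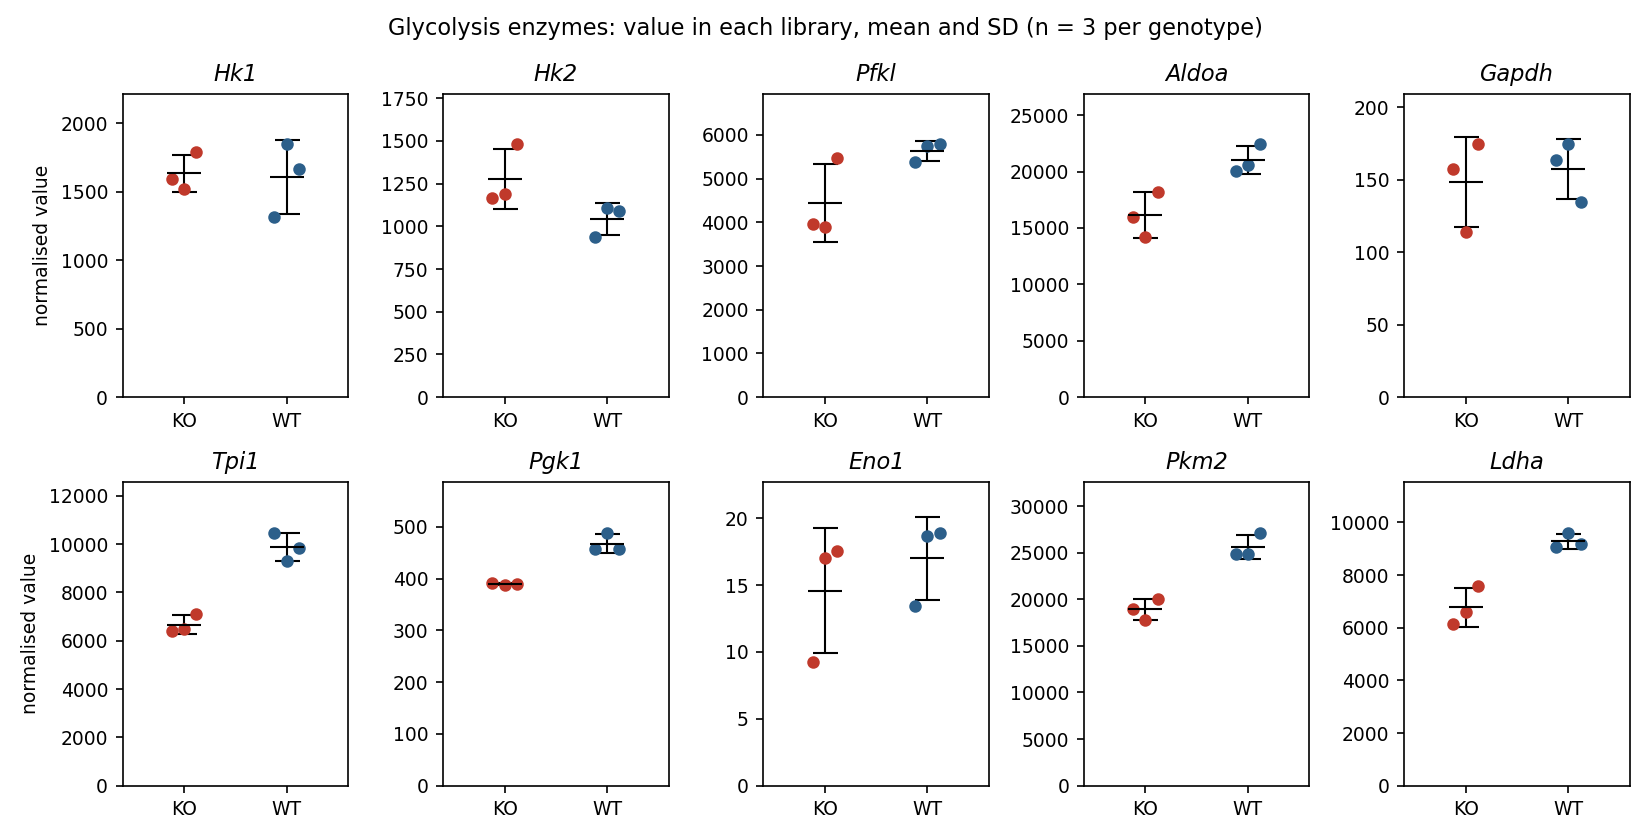
Normalised value of each enzyme in each library, with KO (red) left of WT (blue); points are libraries and black bars the mean and SD of 3 libraries, on axes that start at 0. Tpi1, Aldoa, Pkm2, Ldha and Pgk1 had all KO libraries below all WT libraries, Hk2 had them above, and Hk1, Pfkl, Gapdh and Eno1 overlapped.

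The libraries of the 2 genotypes did not overlap for 6 of the 10 enzymes, with KO below for 5 and above for 1. Among all genes tested, 25.6% had KO below, 24.7% KO above, and 50.3% either. Within KO, most of the enzymes had the same highest library, while the order of KO libraries 5 and 7 differed between them. KO library 8 held the highest KO value for 9 of the 10, the exception being Pgk1, and it was the highest KO library for 35.7% of all genes tested. Without KO library 8 the median log2 change was -0.44 over the 10 and -0.03 over all genes. Then 5 enzymes fell, against 14.9% of all genes lower, 14.9% higher and 29.8% in all. Without WT library 1, which carried the muscle transcripts, 5 also fell, against 14.3% of all genes lower, 15.5% higher and 29.8% in all. These were again Tpi1, Ldha, Pkm2, Aldoa and Pfkl (log2 -0.53, -0.47, -0.46, -0.42 and -0.40).

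Of the 5 enzymes that fell, 4 have short transcripts, and genes with short transcripts were lower more often across the whole table. Tpi1, Aldoa, Ldha and Pkm2 have transcripts of 1607, 1549, 1815 and 2432 nt, and Hk1 and Hk2 have 4278 and 5513 nt. In the quintile of genes with the shortest transcripts, up to 1792 nt, 46.5% were lower and 0.657% higher, with a median log2 change of -0.42. In the quintile with the longest, from 5114 nt, 1.70% were lower and 45.5% higher, with a median of 0.33. Tpi1 (log2 -0.57) and Aldoa (-0.39) are in the shortest quintile together with Gapdh (-0.10, not past the threshold), and Hk2 (0.29, not past it) is in the longest. In the next shortest quintile, with a median of -0.19 and 23.8% of genes lower, Ldha (-0.46) and Pkm2 (-0.44) fell, while Pgk1 (-0.26) and Eno1 (-0.24) did not pass. Pfkl, at 3730 nt, fell in a quintile of the opposite sign: in it the median was 0.15 and 5.12% of genes were lower.

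**Figure D3:**
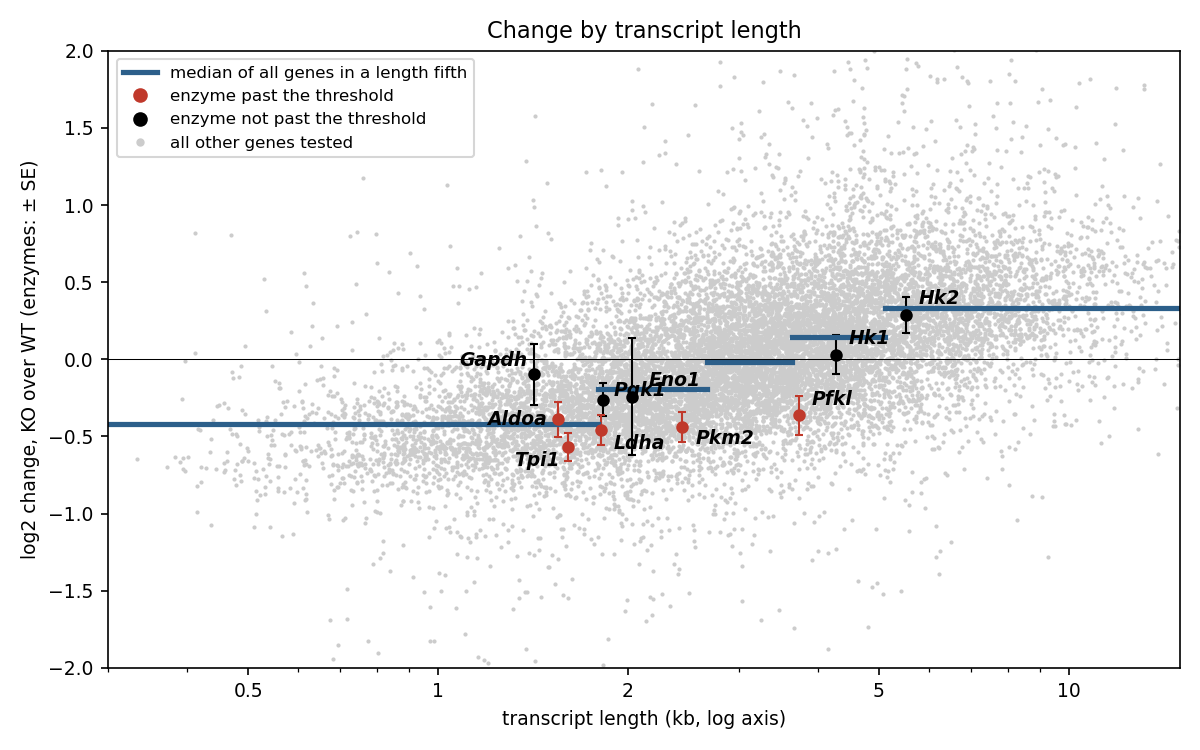
Log2 change of KO over WT against transcript length (log axis) for genes tested, in grey, with the 10 enzymes marked with their SE, red where past the threshold, and blue lines for the median of all genes in each quintile by length; 121 genes lie outside the axes. The medians run between -0.42 in the shortest quintile and 0.33 in the longest; Tpi1 at -0.57 and Aldoa at -0.39 lie at the short end and Hk2 at 0.29 at the long end.

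When the trend of each library on transcript length and GC content was removed, 0 of the 10 enzymes passed the test in either direction, against 11.4% of all genes (5.68% higher, 5.77% lower). With WT library 1 also left out, 0 passed too, against 5.45% of all genes higher and 6.89% lower (12.3% in all). The 95% limma intervals of Pfkl and Tpi1 stayed below 0, before adjustment over all genes. Tpi1 had a log2 change of -0.19 (95% interval -0.36 to -0.03, adjusted p = 0.117) and Pfkl of -0.25 (-0.48 to -0.02, adjusted p = 0.144). Ldha had -0.19 (adjusted p = 0.255) and Pkm2 -0.12 (adjusted p = 0.431). Aldoa had 0.09 (adjusted p = 0.608), with the sign turned. Hk2 had 0.10 (adjusted p = 0.599), and 0.0095 with WT library 1 also left out. The median over the 10 was 0.00 after removal, with 5 of 10 below 0, and -0.10 with WT library 1 also left out, with 7 of 10 below 0. Over all genes these medians were -0.01 and -0.02. A real change that follows length or GC content would be removed as well.

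**Figure D4:**
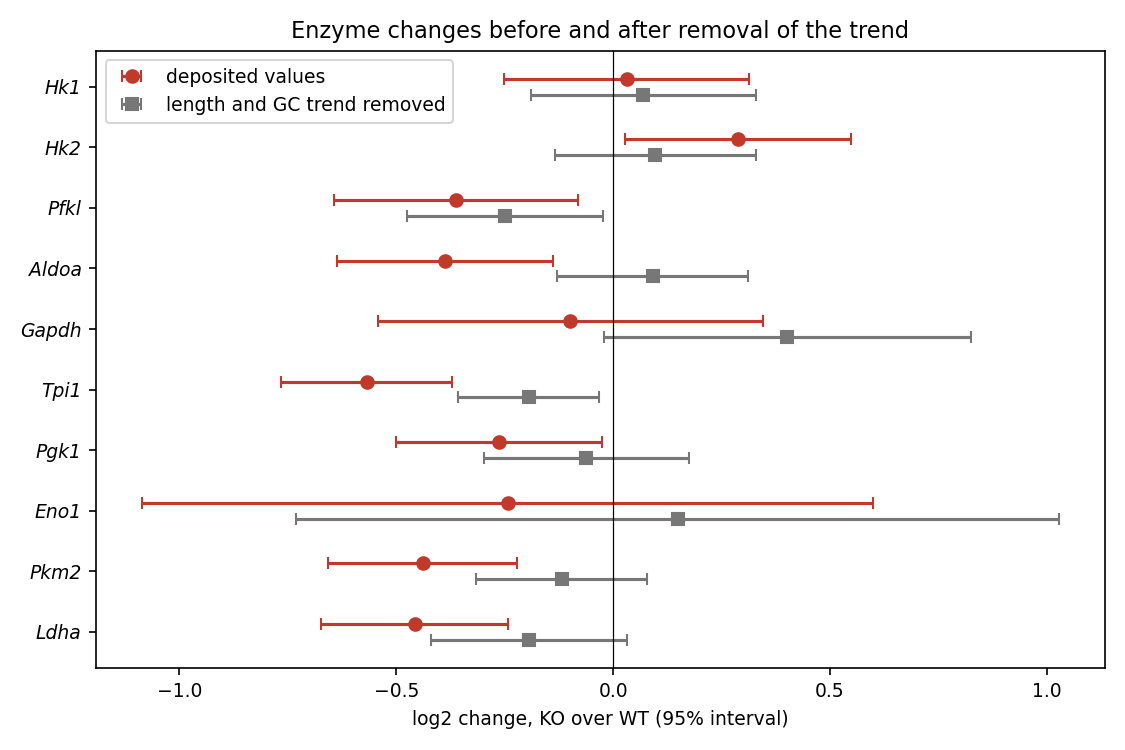
Log2 change of KO over WT for each enzyme with its 95% interval from limma, from the deposited values (red circles) and after removal of the trend on length and GC content (grey squares). The intervals of Tpi1, Ldha, Pkm2, Aldoa, Pfkl and Pgk1 lie below 0 before removal; after it those of Tpi1 and Pfkl still do, ending at -0.03 and -0.02, and Aldoa passes 0 to 0.09.

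The other isoenzymes of the pathway had a median log2 change of -0.29, and of -0.07 after trend removal. Of 17 tested, 0 rose and 5 fell (background 17.0% lower), and 0 passed after trend removal. Pgam2 and Eno3, the muscle forms of phosphoglycerate mutase and enolase, averaged 173 ± 46.8 and 407 ± 23.3 in KO, against 526 ± 401 and 1001 ± 672 in WT (SD, n = 3 each). WT library 1 had values of 986 and 1777 for them, more than any other library, as it did for the muscle markers. Without that library Pgam2 and Eno3 were also called lower, with log2 changes of -0.79 in place of -1.37 and -0.59 in place of -1.10 (adjusted p = 0.0174 and 0.00547). Pklr, the pyruvate kinase of liver and red cells, fell (log2 -1.13, adjusted p = 0.048), and its call ended without WT library 1 (adjusted p = 0.0609). Gpi1, the isomerase between hexokinase and phosphofructokinase, also fell, and is named here after its value was seen (log2 -0.29, adjusted p = 0.0247; 0.0811 without WT library 1). Ldhb, which with Ldha forms the lactate dehydrogenase tetramers, stood at 13755 ± 1078 in KO and 16625 ± 2663 in WT (adjusted p = 0.137). It was called lower without WT library 1 (log2 -0.40, adjusted p = 0.0232), when 3 of the 17 fell, against 14.3% of all genes lower. The ratio of Ldha to Ldhb was 0.495 ± 0.0637 in KO and 0.567 ± 0.0887 in WT (deposited values, not per length), within the spread.

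Among 8 carriers of glucose and lactate, 0 rose and 2 fell, against 17.0% of all genes lower. Slc16a3 (MCT4), the lactate exporter of glycolytic cells, had values of 1492, 1885 and 2549 in KO libraries and 3096, 3038 and 3228 in WT libraries. It fell with a log2 change of -0.69 (SE 0.16, adjusted p = 0.00865), and its change was nearly as large after trend removal (-0.66, adjusted p = 0.0181). Bsg (basigin), which brings lactate carriers to the cell surface, averaged 13840 ± 1666 in KO and 19907 ± 1202 in WT, and its log2 change of -0.53 (adjusted p = 0.00597) was -0.03 after removal. After removal 2 of the 8 were lower (5.77% of all genes), the other being Slc16a7, another monocarboxylate carrier, named after its value was seen. Its deposited values of 54.8 ± 8.99 in KO and 59.4 ± 9.92 in WT overlapped (log2 -0.11, adjusted p = 0.74). Its log2 change of -0.82 after removal (adjusted p = 0.0444) belongs to a transcript of 10981 nt, and the call ended with WT library 1 also left out (adjusted p = 0.0683). Slc2a1 (GLUT1), the basal glucose carrier, named after its value was seen, stood at 1986 ± 131 in KO and 2325 ± 119 in WT (adjusted p = 0.0673).

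Enzymes that set the level of fructose 2,6-bisphosphate, the activator of phosphofructokinase, went up where they changed: 2 of 4 rose and 0 fell, against 17.3% of all genes higher. Pfkfb2 had values of 544, 501 and 469 in KO libraries and 295, 284 and 269 in WT libraries, fully apart. Its log2 change was 0.83 (SE 0.12, adjusted p = 0.00179), and 0.51 after trend removal (adjusted p = 0.0161). Pfkfb3 averaged 730 ± 65.3 in KO and 528 ± 44.6 in WT (log2 0.47, adjusted p = 0.0113), and did not pass after removal (0.27, adjusted p = 0.15). Both have long transcripts, of 4425 and 4801 nt.

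Of 13 genes for the entry of pyruvate into mitochondria, 2 rose and 1 fell, fewer in all than the 34.3% of all genes called. Pdp2, a phosphatase that activates pyruvate dehydrogenase, and Dlat, a subunit of that complex, had log2 changes of 0.67 and 0.35 (adjusted p = 0.037 and 0.0258). Brp44, the older symbol of the pyruvate carrier subunit Mpc2, fell (log2 -0.34, adjusted p = 0.031). After trend removal 0 of the 13 passed. Without WT library 1, 4 rose and 0 fell (15.5% of all genes higher), and Brp44 and Dlat did not pass (adjusted p = 0.0808 and 0.0656). Of 6 gluconeogenesis genes 1 fell, a share near the 17.0% of all genes lower. It was G6pc3, the broadly expressed glucose-6-phosphatase (log2 -0.54, adjusted p = 0.00478, and -0.04 after removal). After removal 1 of the 6 was lower (5.77% of all genes). It was Pck2, the mitochondrial phosphoenolpyruvate carboxykinase, named after its value was seen (log2 -0.43, adjusted p = 0.0239). Its deposited values overlapped between the genotypes and did not pass (log2 -0.27, adjusted p = 0.0751).

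In the pentose phosphate pathway, which draws on glucose-6-phosphate, 4 of 8 fell and 1 rose, against 17.0% of all genes lower and 17.3% higher. Pgls averaged 3394 ± 456 in KO and 5757 ± 1063 in WT (log2 -0.76, adjusted p = 0.00348). Taldo1 had a log2 change of -0.54 (adjusted p = 0.00382) and Tkt of -0.43 (adjusted p = 0.0215), both being enzymes of the sugar-exchanging branch. Rpe, an epimerase of the same branch, rose (log2 0.47, adjusted p = 0.018). Pgd, named after its value was seen, fell (log2 -0.28, adjusted p = 0.0393; 0.136 without WT library 1). After trend removal 0 of the 8 passed.

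**Figure D5:**
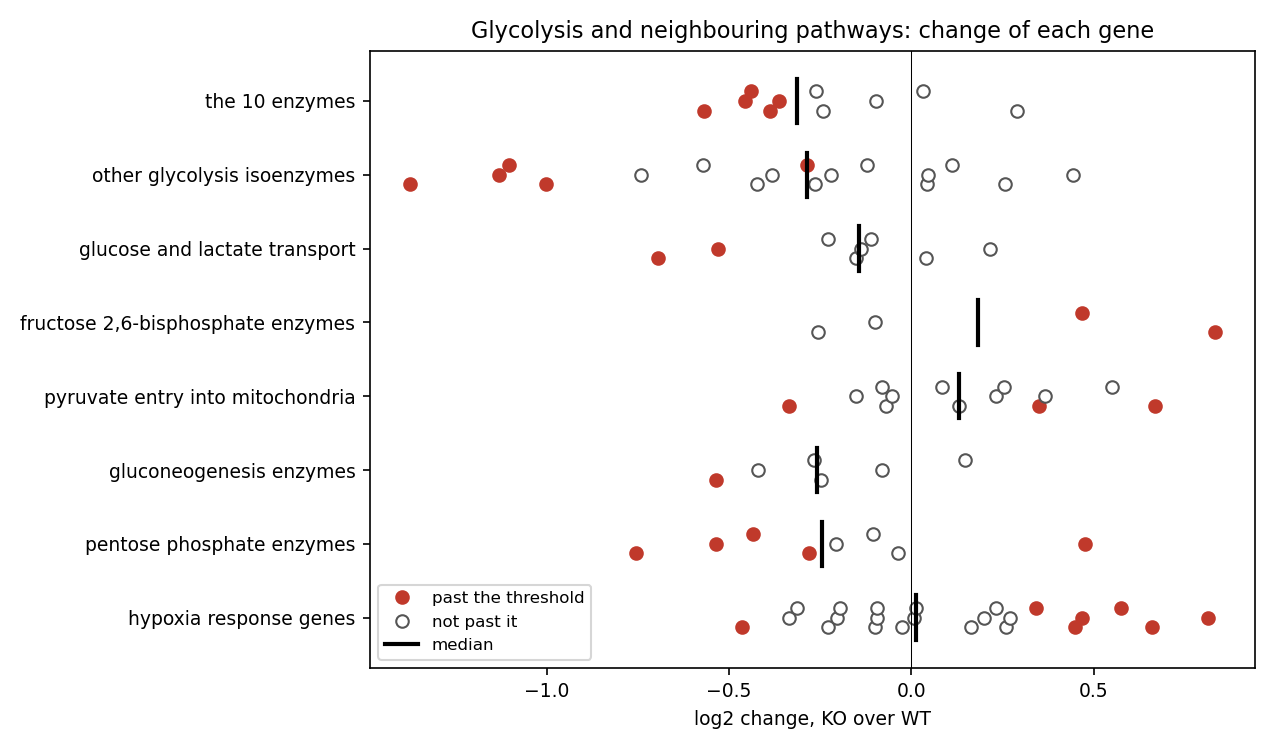
Log2 change of KO over WT for each tested gene of the 10 enzymes and of 7 neighbouring lists, filled where past the threshold of 0.05, with the median of each list as a black bar. The median of the 10 enzymes lies at -0.31 and that of the fructose 2,6-bisphosphate enzymes at 0.18.

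Several glycolysis genes, Pgk1 and Ldha among them, are known targets of the hypoxia-inducible factor, so genes of that response were set beside them. Of 23, 6 rose and 1 fell, against 17.3% of all genes higher and 17.0% lower, and their median log2 change was 0.01. After trend removal 2 were higher and 0 lower, against 5.68% and 5.77% of all genes, and the median was 0.04. Hif1a, the regulated subunit of the factor, averaged 5543 ± 762 in KO and 3157 ± 415 in WT (log2 0.81, SE 0.12, adjusted p = 0.00193), and it was past the threshold after trend removal (0.36, adjusted p = 0.0356). Vegfa, the endothelial growth factor, averaged 2613 ± 168 in KO and 1660 ± 201 in WT (log2 0.66, adjusted p = 0.00209) and changed about as much after removal (0.62, adjusted p = 0.00521). Ero1l rose too (log2 0.57, adjusted p = 0.00383), with a log2 change of 0.16 after removal (adjusted p = 0.43), as did Pfkfb3. Egln2, a prolyl hydroxylase that marks the factor for degradation, was the gene that fell and is named for that (log2 -0.47, adjusted p = 0.00648), with -0.04 after removal (adjusted p = 0.75). Of 6 endothelial markers 2 rose and 0 fell (17.3% of all genes higher), with sums of 7673 to 8726 in KO libraries and 5782 to 8271 in WT libraries, and their part in the value of Vegfa was not tested.

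Promoters were searched on both strands for ACGTG, a form of the core bound by the hypoxia-inducible factor. Other forms of the core were not searched, and the core below means ACGTG alone. The RefSeq windows ran from 250 bases before to 50 after the start (GRCm38.p6). All 10 enzymes matched a window by gene ID. The core was in at least 1 window of 7 of the 10, against 27.4% of 13192 genes of the deposited table with a window. Counted by window, it was in 8 of the 17 windows of the enzymes, against 19.6% of all windows. Windows can overlap, and those of Aldoa at chr7:126799129-126799428 and chr7:126799205-126799504 hold the same match. ACGTG was not in the windows of Tpi1, Pfkl and Eno1, which may hold other forms. A window of Ldha and the windows of Tpi1, which both fell, and of Hk2, which did not, are shown with the core in capitals. The window of Ldha shown holds CACGTG at 2 places, where the matches on both strands overlap, so its 5 matches lie in 3 stretches. The other window of Ldha, at chr7:46846832-46847131, holds 0 matches. Ldha is at chr7:46845554-46845853 (plus strand), Tpi1 at chr6:124814109-124814408 (minus strand) and Hk2 at chr6:82774405-82774704 (minus strand).
Ldha: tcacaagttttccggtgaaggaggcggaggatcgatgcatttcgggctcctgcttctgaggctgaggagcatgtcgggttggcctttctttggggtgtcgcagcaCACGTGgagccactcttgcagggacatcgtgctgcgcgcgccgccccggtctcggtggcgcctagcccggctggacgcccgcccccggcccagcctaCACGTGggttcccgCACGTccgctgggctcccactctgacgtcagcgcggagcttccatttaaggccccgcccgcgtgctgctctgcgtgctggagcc
Tpi1: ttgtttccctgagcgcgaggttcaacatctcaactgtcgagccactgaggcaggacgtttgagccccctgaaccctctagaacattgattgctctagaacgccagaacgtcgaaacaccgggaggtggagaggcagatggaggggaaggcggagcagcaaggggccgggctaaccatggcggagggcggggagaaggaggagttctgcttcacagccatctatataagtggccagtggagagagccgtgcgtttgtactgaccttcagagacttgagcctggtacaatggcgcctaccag
Hk2: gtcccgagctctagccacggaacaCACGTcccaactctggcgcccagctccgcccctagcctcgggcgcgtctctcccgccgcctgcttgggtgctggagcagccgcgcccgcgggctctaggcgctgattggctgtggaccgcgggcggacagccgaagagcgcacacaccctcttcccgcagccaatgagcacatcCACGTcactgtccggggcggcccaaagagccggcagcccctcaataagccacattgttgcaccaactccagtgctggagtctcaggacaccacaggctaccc
A match describes these letters and not a bound site. The core was in at least 1 window of enzymes that fell (Ldha, Pkm2 and Aldoa) and also of Hk1 and Hk2. In Hk1 both matches lie after the start, within the last 50 bases of the window.

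The genes whose pattern over the 6 libraries lay nearest to the median of the 10 enzymes were sought among 5873 others with a mean value of at least 1000. The measure was the root mean square difference of log2 values centred over the libraries. The nearest were Cdc42ep1, Rnpepl1, Men1, Fbxw8 and Islr2, with differences of 0.035 to 0.038, which are small because the genes were picked for this. The enzymes, which were not picked this way, lay between 0.056 (Aldoa) and 0.31 (Hk2) from their median. Men1, which encodes the tumour suppressor menin, had values of 2373, 2346 and 2827 in KO libraries and 2978, 3180 and 3083 in WT libraries. None of the 5 is an enzyme of glycolysis.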

How the data were processed

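The authors deposited upper-quartile normalised pseudo-counts per gene, a signal that is not reads. Per the submitters' processing notes they used CASAVA 1.8.2 and edgeR 2.6.2 on mm9; the role of each tool is not given in the sources used here. All 6 columns matched a library by name, leaving 0 unmatched, and no pair of libraries was identical. The enzymes and lists were chosen with earlier results of these data known.

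From these values, log2(value + 1) was fitted with limma 3.58.1 in R 4.3.3 on the 15116 genes of the filter, with a mean-dependent prior, two-sided tests and Benjamini-Hochberg adjustment over all genes. Changes are reported on that log2 scale and are too small for low values. An exact permutation test of 3 against 3 libraries cannot go below p = 0.1. Length and GC content came from the longest protein-coding transcript in GENCODE vM21 (GRCm38), matched by gene ID without coordinates (14449 tested genes, 95.6%). Their trend was fitted per library by natural splines (4 degrees of freedom for each property). Shared sequence was counted on the same strand over 32 bases. The fit was tested on simulated data. Named genes were the 10 enzymes, Ptgds and Hpgds, up to 4 members past the threshold per list by size of change (up to 2 by mean level where none passed) and the 5 of nearest pattern. Python 3.11.15 and matplotlib 3.10.9 drew the figures. A single gene meeting this rule was left out of the text.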

Additional observations from a re-analysis of the deposited data

How the results depend on the processing

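Depth is unknown, so counting error could not be set beside the spread of 3 libraries per genotype. No paired analysis was possible because the genotypes share no replicate numbers. The count of enzymes past the threshold, 5 in all, was 3 after quantile normalisation, 3 with a prior that has no mean trend, and 3 to 5 with 1 library left out. It was 6 with library weights, where 7243 genes were called. With the length and GC trend removed it was 0, and 0 with WT library 1 also left out. Genes called over the whole table, 5180 in all, numbered 1654 and 1782 under those removals and 3032 to 5041 with 1 library left out, fewest without WT library 4. Under equal totals, 3511 genes were higher and 1690 lower, the median over all genes was 0.07 and over the enzymes -0.21, and of the enzymes 1 was higher and 3 lower. Log2 signs turned for Aldoa (0.0910 after trend removal, 0.0133 with WT library 1 also left out) and Gapdh (0.40 and 0.39 there, 0.00271 under equal totals, 0.0392 with library weights). They turned for Hk1 (-0.0165 with library weights, -0.0810 with the trend removed and WT library 1 left out) and Eno1 (0.15 after trend removal). With 1 library left out, Hk1 ran from -0.107 (without WT library 1) to 0.137, Gapdh from -0.226 to 0.0808 (without KO library 7) and Eno1 from -0.396 to 0.0358 (without KO library 5). Tpi1, Ldha, Pkm2, Pfkl and Pgk1 kept their direction under all 18 alternatives. Hk2 kept its sign but came to 0.0095 (SE 0.0968) with the trend removed and WT library 1 left out. Causes were not tested.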
